A study of Mus musculus with 9 samples.

Results

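The genes described here encode the metalloproteinases that cut extracellular matrix and cell-surface proteins, together with their tissue inhibitors. They were taken by symbol from the platform annotation: *Mmp*, *Timp*, *Adam* and *Adamts* followed by a number, without *Adam32*. Of the 18193 genes measured by a probe set that names 1 gene, 64 were members: 18 *Mmp*, 4 *Timp*, 27 *Adam* and 15 *Adamts* genes. Pancreatic islets of 8-week-old male mice were compared on 9 Affymetrix Mouse Genome 430 2.0 arrays, 4 from βRapKO mice (labelled KO) and 5 from WT mice. βRapKO mice carried floxed *Raptor* alleles on both chromosomes (*Raptor* flox/flox) and RIP-Cre, a Cre recombinase under the rat insulin promoter, which deletes *Raptor*, an essential part of the kinase complex mTORC1, in insulin-expressing cells. WT mice were *Raptor* flox/flox littermates without Cre, so that the presence of Cre and the deletion cannot be told apart. The floxed line was C57BL/6J and the Cre line a mix of C57BL/6J with another inbred strain, and the labels name the strain as C57BL/6. Each array held RNA pooled from the islets of 5 mice of 1 genotype, replicates were separate pools, and islets had been freed with a collagenase perfusion and picked by hand.

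Matrix metalloproteinases (MMPs) are zinc proteases made as inactive proenzymes, most of them secreted and some anchored in the cell membrane. Tissue inhibitors of metalloproteinases (TIMPs) bind their active sites, ADAMs are membrane proteins of which many release the outer parts of growth factors and receptors, and ADAMTSs are secreted proteases of proteoglycans and procollagens. In the pancreas these enzymes act on the basement membranes around islets and their capillaries, and fibroblasts, pericytes, endothelial cells and macrophages are known sources of several of them, besides the endocrine cells.

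Of the promoters, 4 stretches of 120 bases just upstream of the annotated start are shown, because they carry the motifs by which the *Mmp* gene cluster on chromosome 9 differed from other members: *Mmp14* and *Timp2*, which are measured in these islets, and *Mmp3* and *Mmp10* of the cluster, whose signals lay under the filter used below. The sequences are RefSeq's, on build GRCm38.p6, at chr14:54431478-54431597 (plus strand) for *Mmp14*, chr11:118355412-118355531 (minus strand) for *Timp2*, chr9:7445702-7445821 (plus strand) for *Mmp3* and chr9:7502222-7502341 (plus strand) for *Mmp10*. Capitals mark 3 motifs. The GC box is written GGGCGG. The motif of AP-1 transcription factors is written TGANTCA, where N is any base. The TATA box is written TATAAA.
Mmp14: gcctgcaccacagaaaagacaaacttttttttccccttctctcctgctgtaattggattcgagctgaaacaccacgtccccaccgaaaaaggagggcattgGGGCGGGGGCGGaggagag
Timp2: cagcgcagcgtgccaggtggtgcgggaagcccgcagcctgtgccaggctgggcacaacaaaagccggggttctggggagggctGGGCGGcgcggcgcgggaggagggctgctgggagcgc
Mmp3: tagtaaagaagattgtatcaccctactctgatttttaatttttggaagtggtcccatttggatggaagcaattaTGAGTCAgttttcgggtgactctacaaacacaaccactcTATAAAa
Mmp10: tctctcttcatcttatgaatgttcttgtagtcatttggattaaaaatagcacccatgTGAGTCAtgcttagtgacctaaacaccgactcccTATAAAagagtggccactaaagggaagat
In the *Mmp14* stretch the pair of adjacent GC boxes began 19 and 13 bases before the start, and in *Timp2* the GC box began 37 bases before it. In *Mmp10* the AP-1 motif began 63 and the TATA box 29 bases before the start, and in *Mmp3* they began 46 and 7 bases before it. RefSeq promoter windows of 300 bases were held for 37 of the 64 members and were searched on both strands. TATAAA and TGANTCA were both present in 8 of the 9 measured cluster genes (88.9%), in 0 of the 28 other members and in 2.08% of all 27025 genes with a window. GGGCGG was present in 0 of the 9 measured cluster genes, in 17 of the 28 other members (60.7%) and in 38.2% of all genes. A match is a run of letters only and says nothing of binding.

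Across all genes, the fit (limma, 13644 genes left after the lowest 0.25 by mean signal was taken out, Benjamini-Hochberg adjusted p under 0.05, referred to as called) called 860 genes, or 6.30%, of which 501 were higher (3.67%) and 359 lower (2.63%) in βRapKO islets. With array medians set equal, 474 genes were called, 214 higher and 260 lower. *Rptor*, which encodes RAPTOR, was at log2 signals of 8.59, 8.48, 9.21 and 8.73 on the βRapKO arrays and 9.53, 9.59, 9.71, 9.22 and 9.30 on the WT arrays. The groups did not overlap, and the difference was -0.72 ± 0.17 (log2, SE, adjusted p = 0.0410). The position of this probe set relative to the deleted exon is not given in the sources used here, and the call was lost without any 1 of 7 of the 9 arrays. Correlations between arrays ran from 0.875 to 0.910 over all probe sets, in both groups and between them.

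Markers of several cell types differed with genotype, among them some known sources of matrix enzymes (plot of marker means by array). Fibroblast, stellate cell and pericyte markers, 18 in all, averaged 9.35 ± 0.21 in βRapKO islets and 8.23 ± 0.39 in WT islets (log2, SD, n = 4 and 5 arrays), with a difference of 1.12 that separated every array (exact two-sided permutation p = 0.00794, the smallest that 4 against 5 arrays allow, adjusted p = 0.0218 over 11 cell types). Of the 18 markers limma called 9 higher, against 3.67% of all genes tested, and the methods' t-test called 4. None of the 18 was at the floor, and their summed linear signal ran from 22489 to 35095 on βRapKO arrays and from 10909 to 19816 on WT arrays. The mean of 14 endothelial markers was higher by 0.30 (exact p = 0.00794), although limma called 0 of them singly (4 at an unadjusted p under 0.05, 0 by the methods' t-test), and their sum ran from 15807 to 18561 on βRapKO arrays and from 13334 to 15215 on WT arrays. The mean of 9 macrophage markers was 8.68 ± 0.26 in βRapKO islets and 8.40 ± 0.18 in WT islets, with overlap (exact p = 0.127), and their sum ran from 5858 to 8142 and from 4977 to 5751. The mean of 3 ductal markers was higher by 0.92 (exact p = 0.0159, adjusted p = 0.0349) and that of 3 delta cell markers by 0.45, both without overlap (exact p = 0.00794 for delta cells, adjusted p = 0.0218). Of the ductal markers limma called 0 singly (1 at an unadjusted p under 0.05, 0 by the methods' t-test). It called 1 of the 3 delta cell markers, *Hhex*, and 2 of the 3 had a difference above 0. Summed linear signals overlapped for both, at 4525 to 5436 on βRapKO and 4097 to 4819 on WT arrays for ductal markers. For delta cell markers they ran from 46088 to 52817 and from 43919 to 50981. Schwann cell markers were higher by 0.74 (exact p = 0.0476, adjusted p = 0.0748) and alpha cell markers by 0.25 (exact p = 0.0397, adjusted p = 0.0728), both with overlap, and neither passed the adjusted threshold. Of the 3 alpha cell markers limma called 0 (1 at an unadjusted p under 0.05, 0 by the methods' t-test), and 2 had a difference above 0. Their summed linear signal ran from 36861 to 41381 on βRapKO arrays and from 37076 to 47212 on WT arrays. Neutrophil and lymphocyte markers overlapped (exact p = 0.294 and 0.786). Beta cell markers averaged 13.39 ± 0.12 in βRapKO islets and 13.95 ± 0.11 in WT islets (exact p = 0.00794). Of the 6, limma called 3 lower, against 2.63% of all genes tested, and the methods' t-test called 3. Acinar markers spread over 8.89 to 13.91 on single arrays and showed no separation (exact p = 0.778). The part of any of these cell types in the differences below was not tested, and in bulk islet RNA a change in the number of cells of a type and a change in RNA per cell cannot be told apart.

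**Figure D1:**
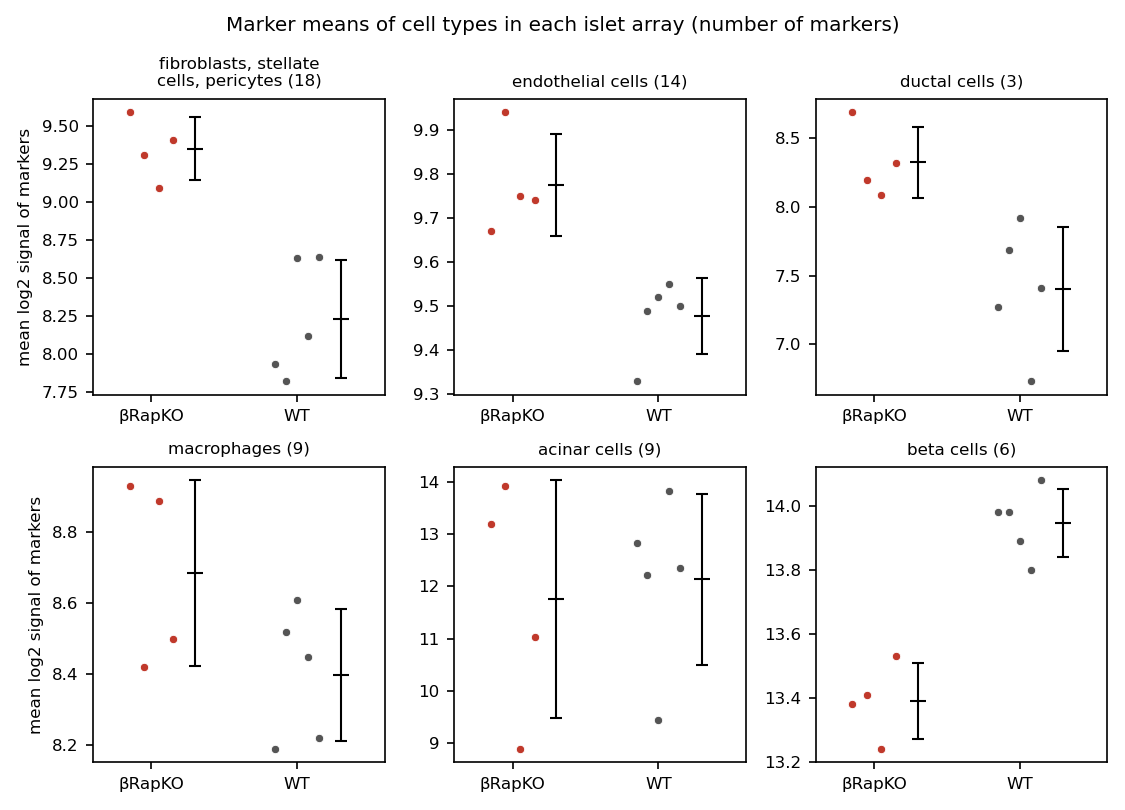
Marker genes of 6 cell types, averaged on the log2 scale (vertical axes, scaled separately) on each βRapKO and WT array. Points are arrays and bars are the mean ± SD; the fibroblast, endothelial, ductal and beta cell means do not overlap between the groups, whereas macrophage and acinar means do.

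Of the 64 members, 36 passed the filter: 8 *Mmp*, 4 *Timp*, 14 *Adam* and 10 *Adamts* genes. The filter took the mean over all 9 arrays, at a log2 signal of 5.51, so that a gene with signal in only 1 group could fall on either side of it, and counts over the 36 are a description. limma called 4 of the 36 (11.1%, against 6.30% of all genes tested): *Mmp14*, *Adamts18* and *Adamts9* rose and *Adam9* fell. The groups did not overlap for 8 of the 36 (22.2%, against 12.5% of all genes), with 6 higher (7.43% of all genes) and 2 lower (5.05%) in βRapKO islets. An unadjusted p under 0.05 was reached by 12 (33.3%, against 21.8%). The median difference was 0.19 over the 36 and 0.04 over all genes tested, with 23 members above 0 and 13 below it (63.9% above 0, against 56.2% of all genes tested; plot of differences by gene). By class, the medians were 0.18 for *Mmp*, 0.43 for *Timp*, 0.00 for *Adam* and 0.42 for *Adamts* genes. Without the filter, where all 64 members entered a fit of 18193 genes, their median was also 0.19, 11 had an unadjusted p under 0.05, and limma called only *Adam9*, against 2.48% of all genes. Groups did not overlap for 9 of the 64, against 9.94% of all 18193 genes. Precision followed signal: the pooled SD within groups had a median of 0.149 over the 7 members with a mean above 9, 0.306 over the 11 between 7 and 9, and 0.609 over the 18 under 7.

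**Figure D2:**
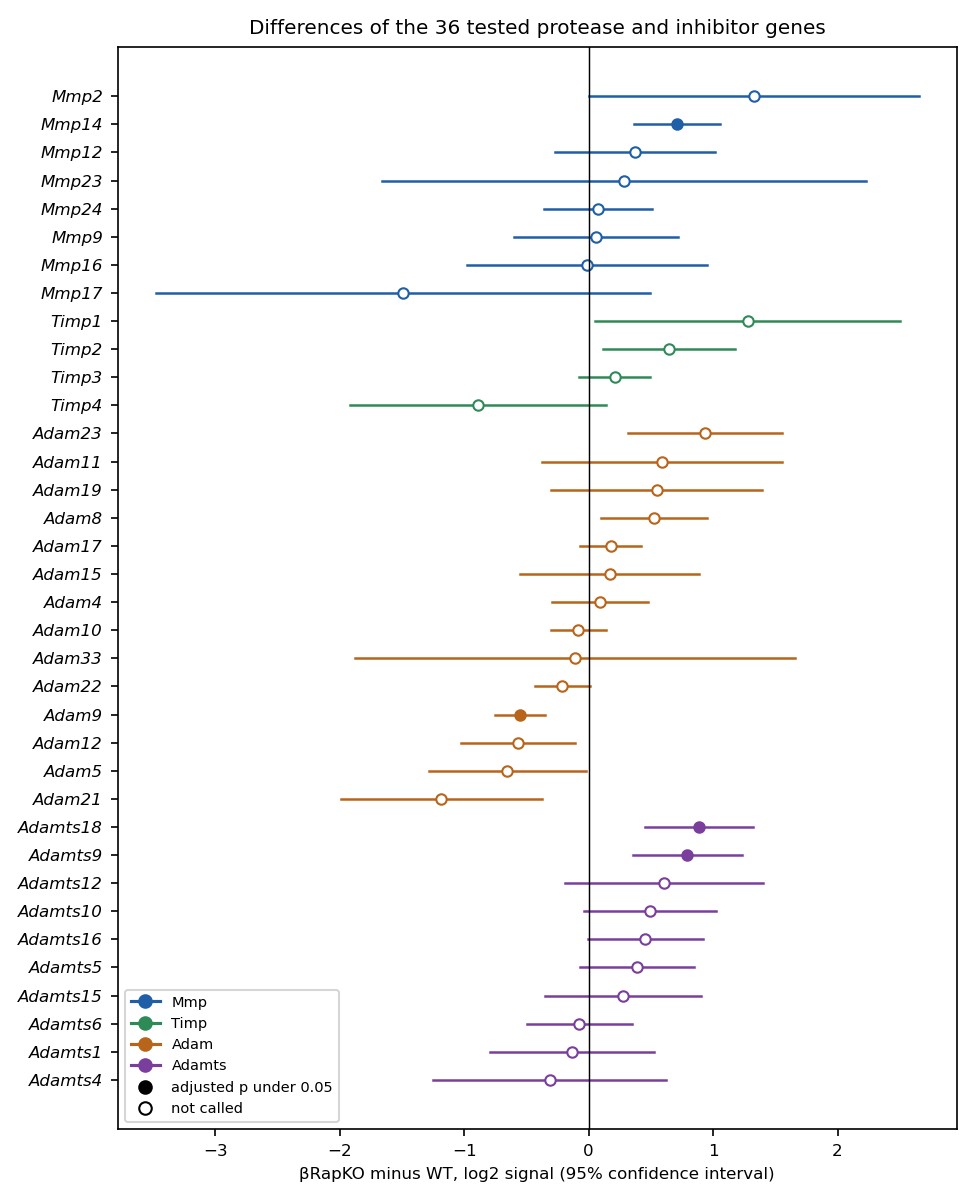
Difference between βRapKO and WT islets (horizontal axis, log2 signal, point and 95% confidence interval) of the 36 members tested, grouped by class and ordered by size. Filled points mark the 4 called members, *Mmp14*, *Adam9*, *Adamts18* and *Adamts9*. The widest intervals are those of *Mmp17*, where βRapKO replicate 4 was at 1.90, and *Mmp23*.

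Among the MMPs, membrane-type *Mmp14* rose, and the gelatinase *Mmp2* was higher on every βRapKO array without passing the adjusted threshold. *Mmp14* encodes MT1-MMP, a collagen-cleaving enzyme anchored in the plasma membrane that activates pro-MMP2 with the help of TIMP2. Its log2 signals were 8.05, 7.56, 8.19 and 7.78 in βRapKO islets and 7.44, 7.16, 7.13, 7.28 and 6.92 in WT islets. The lowest βRapKO array stood above the highest WT array by a small margin. The difference was 0.71 ± 0.15 (1.64-fold, 95% interval 0.36 to 1.06, adjusted p = 0.0303 by limma). The call was lost without any 1 of 7 of the 9 arrays (βRapKO 1, 3 or 4, or WT 2, 3, 4 or 5), where adjusted p ranged up to 0.0935. The other probe sets of *Mmp14* were dimmer, with differences of 0.75 ± 0.81 and 0.26 ± 0.92.

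*Mmp2* encodes gelatinase A, which digests denatured collagen and basement membrane collagen and is made mainly by fibroblast-like cells. Its signals were 8.44, 8.40, 8.08 and 8.02 in βRapKO islets and 4.76, 6.79, 7.81, 7.23 and 7.95 in WT islets. The βRapKO arrays lay close together, the WT arrays were spread over more than 3 log2 units, and the groups did not overlap. The difference was 1.33 ± 0.59 (95% interval 0.00 to 2.65, adjusted p = 0.229). Without WT replicate 1, the lowest array, it was 0.79 with an adjusted p of 0.145. A second probe set showed 2.46 ± 0.86 with overlapping groups (adjusted p = 0.270 over all probe sets). The other gelatinase, *Mmp9*, typical of neutrophils and macrophages, differed by 0.06 ± 0.29 (95% interval -0.60 to 0.72), so that its groups could not be distinguished at this precision.

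None of the 4 collagenase genes (*Mmp1a*, *Mmp1b*, *Mmp8*, *Mmp13*) and none of the 3 stromelysin genes (*Mmp3*, *Mmp10*, *Mmp11*) passed the filter. The 9 measured genes of the *Mmp* cluster lie on chromosome 9 between 7272514 and 7699585 (GRCm38.p6), within 427.1 kb, and 8 of the 9 were under the filter. The one that passed, *Mmp12*, which encodes the macrophage elastase, had signals of 7.24, 6.99, 6.66 and 5.69 in βRapKO islets and 6.01, 6.20, 6.27, 6.36 and 6.52 in WT islets, with overlap (0.37 ± 0.28, adjusted p = 0.50). These dim signals do not show whether the cluster genes were expressed, since no detection calls were used here. The remaining tested MMPs were not called, and their differences ran from -1.49 in *Mmp17*, where βRapKO replicate 4 was at 1.90 and the other arrays between 5.98 and 7.0, to 0.28 in *Mmp23*.

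All 4 TIMP genes passed the filter, and limma called 0 of them (2 at an unadjusted p under 0.05, 0 by the methods' t-test). *Timp2*, whose product both inhibits MMPs and takes part in pro-MMP2 activation by MT1-MMP, had signals of 10.47, 10.37, 10.51 and 10.93 in βRapKO islets and 9.77, 9.28, 10.33, 9.85 and 10.41 in WT islets. Only the highest WT array reached the lowest βRapKO array. The difference was 0.64 ± 0.23 (95% interval 0.11 to 1.18, adjusted p = 0.148). Its second probe set gave 10.58, 10.35, 10.54 and 10.45 in βRapKO islets and 9.57, 9.27, 9.68, 9.60 and 9.82 in WT islets. Here every βRapKO array was above every WT array, and the difference was 0.89 ± 0.13 (1.86-fold). With all 34945 probe sets tested on their own, an alternative chosen after seeing the data, this was the 1 of the 115 member probe sets that was called (adjusted p = 0.0255, against 0.970% of all probe sets). Of the 6 probe sets of *Timp2*, 5 were higher in βRapKO islets.

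*Timp1* encodes a secreted inhibitor of most soluble MMPs that acts poorly on membrane-type enzymes. It had signals of 7.06, 7.03, 7.08 and 7.29 in βRapKO islets and 6.60, 6.69, 6.71, 5.12 and 4.06 in WT islets. Every βRapKO array was above every WT array, and WT replicates 4 and 5 were far below the other WT arrays. The difference was 1.28 ± 0.54 (adjusted p = 0.210) and 0.83 without WT replicate 5. With all signals under 6 set to 6, it was 0.71 and was called (adjusted p = 0.0383).

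*Timp3* encodes the matrix-bound inhibitor, which also acts on ADAM17 and on ADAMTS4 and ADAMTS5. Its signals were 11.34, 11.18, 11.28 and 11.15 in βRapKO islets and 11.37, 10.95, 11.13, 10.77 and 10.93 in WT islets. The groups overlapped, with a difference of 0.21 ± 0.13 (95% interval -0.08 to 0.49, adjusted p = 0.378). A second probe set did not overlap and differed by 0.28 ± 0.11 (adjusted p = 0.305 over all probe sets).

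*Timp4*, best known from heart, had signals of 5.99, 6.32, 6.22 and 3.97 in βRapKO islets and 6.44, 6.05, 6.75, 6.58 and 6.76 in WT islets. Its difference of -0.89 ± 0.45 (adjusted p = 0.296) was the only negative one of the 4 TIMPs, and it was -0.34 without βRapKO replicate 4. A dimmer second probe set of *Timp4* had a difference above 0, of 0.50 ± 0.90. The plot of every probe set shows how far the probe sets of 1 gene differed in brightness and in error.

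**Figure D3:**
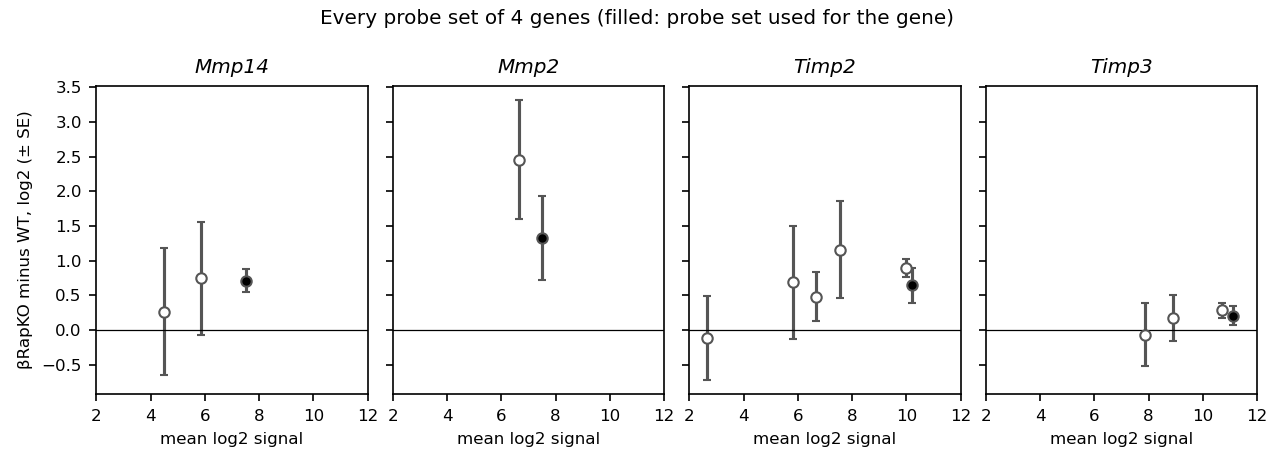
Difference between βRapKO and WT islets (vertical axis, log2, ± SE) against mean log2 signal (horizontal axis) for every probe set of *Mmp14*, *Mmp2*, *Timp2* and *Timp3*. The filled point is the probe set with the highest mean; for *Timp2*, 5 of 6 points lie above 0 and the second brightest has the smallest error.

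Among the ADAMs, *Adam9* fell, and of the 4 calls it held in the most alternatives with 1 value per gene. *Adam9* encodes a widely expressed membrane protease that can release growth factors such as HB-EGF from the cell surface. Its signals were 11.08, 11.16, 11.12 and 11.06 in βRapKO islets and 11.62, 11.89, 11.57, 11.59 and 11.63 in WT islets. The groups were far apart compared with the spread within either. The difference was -0.55 ± 0.09 (1.47-fold lower, 95% interval -0.75 to -0.35, adjusted p = 0.0091). It was called without any 1 of the 9 arrays (adjusted p from 0.0141 to 0.0364) and in 17 of 18 alternatives with 1 value per gene. It was not called with the replicate block (adjusted p = 0.0772) or among all 34945 probe sets tested on their own (adjusted p = 0.0610). A single probe set measures the gene.

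*Adam9* lies on chromosome 8 beside *Adam18*, *Adam3* and *Adam5*, within 414.8 kb (24602246 to 25017040, GRCm38.p6). *Adam32*, which is no member here and was singled out after its values were seen, lies between *Adam5* and *Adam9* at 24836143 to 24948918. Its signals were 7.64, 7.34, 7.15 and 7.24 in βRapKO islets and 9.05, 8.96, 8.74, 9.0 and 9.04 in WT islets, and it fell by 1.61 ± 0.12 on the log2 scale (adjusted p = 0.000286). *Adam5*, on its other side, had a difference of -0.65 ± 0.28 with overlapping groups (adjusted p = 0.214), and *Adam18* and *Adam3* were under the filter. Whether the neighbours' values are linked was not tested.

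*Adam23* and *Adam12* did not overlap between the groups but were not called. *Adam23* encodes an ADAM without a working active site that binds LGI1 at synapses. Its signals were 8.15, 8.20, 8.17 and 8.38 in βRapKO islets and 7.59, 6.83, 7.69, 6.51 and 7.83 in WT islets (0.94 ± 0.27, adjusted p = 0.0800). The βRapKO arrays were tight and the WT arrays wide, and a fit with a trended, robust prior called it (adjusted p = 0.0387). *Adam12*, whose product is an active sheddase known from muscle, fat and placenta, had signals of 5.19, 6.20, 6.20 and 6.11 in βRapKO islets and 6.49, 6.46, 6.59, 6.41 and 6.51 in WT islets (-0.57 ± 0.20, adjusted p = 0.140). Without βRapKO replicate 1 the difference was -0.32, and with signals under 6 set to 6 it was -0.37 and called (adjusted p = 0.0310). The other probe set of *Adam12* was dimmer and overlapped, with a difference of -0.03 ± 0.42.

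The sheddases best known for Notch and TNF were not called. *Adam10*, the main protease that releases the Notch receptor's outer part, averaged 11.18 ± 0.09 in βRapKO islets and 11.26 ± 0.14 in WT islets (SD, n = 4 and 5). Its difference of -0.08 ± 0.10 had a 95% interval of -0.30 to 0.14 (adjusted p = 0.681), and it turned to 0.13 when its probe sets were averaged. *Adam17*, which encodes the TNF-releasing enzyme and was named after its values were seen, differed by 0.18 ± 0.11 (adjusted p = 0.394). Of the 15 ADAM genes known mainly from testis or epididymis, 12 were under the filter. The remaining *Adam* genes tested were not called, with differences from -1.18 to 0.59.

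Among the 10 tested ADAMTS genes, *Adamts18* and *Adamts9* rose, where 3.67% of all genes tested were called higher. A difference above 0 was found for 7 of the 10, against 56.2% of all genes tested. *Adamts18* encodes a secreted protease whose substrates are less well defined than those of its relatives. Its signals were 8.45, 8.02, 8.80 and 8.23 in βRapKO islets and 7.29, 7.73, 7.80, 7.12 and 7.49 in WT islets. The lowest βRapKO array was above the highest WT array. The difference was 0.89 ± 0.19 (1.85-fold, 95% interval 0.45 to 1.32, adjusted p = 0.0313). It lost the call without any 1 of 6 arrays (βRapKO 1, 3 or 4, or WT 1, 4 or 5), with adjusted p up to 0.0909. Its other probe sets differed by 0.13 ± 0.16 and 0.55 ± 0.52.

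*Adamts9* encodes a protease of the proteoglycans versican and aggrecan. Its signals were 8.02, 8.06, 7.69 and 7.82 in βRapKO islets and 7.18, 6.44, 7.22, 7.26 and 7.41 in WT islets. The groups did not overlap, and WT replicate 2 was the lowest of all arrays. The difference was 0.79 ± 0.19 (1.73-fold, adjusted p = 0.0458), and the call was lost without any 1 of 7 arrays (each βRapKO array, or WT 1, 3 or 4), with adjusted p up to 0.123. Its other probe sets differed by 0.68 ± 0.31 and 0.21 ± 0.67. *Mmp14*, *Adamts18* and *Adamts9* were each higher on every βRapKO array than on every WT array. So were the fibroblast, endothelial, ductal and delta cell marker means given above, whereas the beta cell marker mean was lower on every βRapKO array. The part of these cell types in the rise of the 3 genes was not tested.

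*Adamts1*, the member with the highest mean of its class and a protease of versican and aggrecan, averaged 8.31 ± 0.38 in βRapKO islets and 8.44 ± 0.54 in WT islets. Its difference of -0.13 ± 0.29 (95% interval -0.79 to 0.52) changed sign without βRapKO replicate 3 (0.02) or WT replicate 2 (0.07). The proteoglycanase *Adamts8*, singled out after its values were seen, lay just under the filter, at a mean of 5.50. Its signals were 5.70, 7.08, 6.38 and 6.46 in βRapKO islets and 5.32, 4.65, 5.33, 4.34 and 4.21 in WT islets, without overlap. In the fit without the filter the difference was 1.63 ± 0.34 (adjusted p = 0.0504). A single probe set measures the gene, and limma did not call it among all probe sets tested on their own (adjusted p = 0.0805). It was called in the setting that averaged the probe sets of each gene, although averaging leaves its own values unchanged. The nearest member inside the filter was *Mmp23*, with a mean of 5.68. The remaining *Adamts* genes tested were not called, with differences from -0.31 to 0.61. The plot of single arrays sets the genes with the clearest separation beside those without one.

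**Figure D4:**
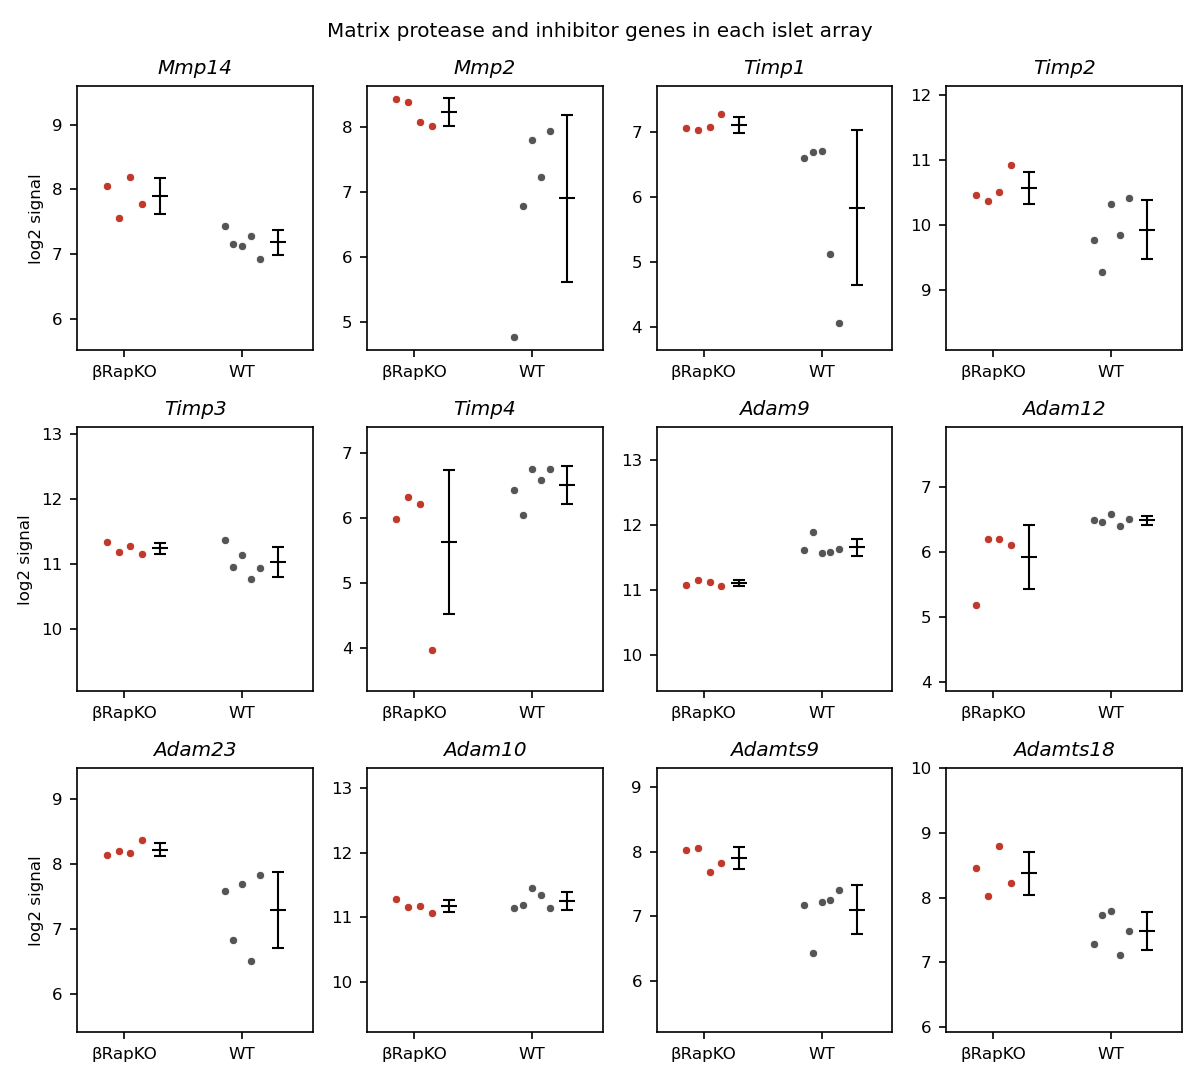
Log2 signal (vertical axes of equal span, each set around its gene) of 12 members on each βRapKO and WT array, with the mean ± SD as bars. *Adam9* separates with little spread, *Mmp14*, *Adamts9* and *Adamts18* separate with more, and *Adam10* overlaps. WT replicate 1 lies far below the other WT arrays in *Mmp2*, and WT replicates 4 and 5 do in *Timp1*.

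Genes that work with these proteases, or are cut by them, were taken from lists outside the family. Of 16 tested matrix substrates, 6 rose and 0 fell (limma, median difference 0.79, against 0.04 over all genes). Among all genes tested, 3.67% were called higher and 2.63% lower. The proteoglycan gene *Bgn*, which encodes biglycan, had signals of 11.16, 10.90, 10.61 and 10.87 in βRapKO islets and 9.33, 9.31, 9.77, 9.36 and 9.46 in WT islets. It rose 2.72-fold (1.44 ± 0.14, adjusted p = 0.0010). *Dcn*, which encodes decorin, rose by 2.04 ± 0.38, *Fn1*, which encodes fibronectin, by 1.28 ± 0.20, and *Nid1*, which encodes the basement membrane protein nidogen, by 0.75 ± 0.15. With probe sets averaged *Dcn*, *Fn1* and *Nid1* were not called, whereas *Bgn* was. *Dcn* also lost the call without βRapKO replicate 1 (adjusted p = 0.0596), and *Nid1* without any 1 of 4 arrays. *Dcn*, *Col1a2* and *Col3a1*, all among the 6, were also on the list of fibroblast markers.

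For the counts that follow, the share of all genes tested that was called higher was 3.67%. Of 12 other inhibitors and activators of matrix proteolysis, 2 rose (median 0.39). *Plat*, which encodes tissue plasminogen activator, had signals of 9.07, 8.94, 8.84 and 8.99 in βRapKO islets and 7.86, 8.02, 7.93, 8.68 and 8.51 in WT islets (0.76 ± 0.18, adjusted p = 0.0423), but the difference was -0.27 when its probe sets were averaged. *Serpinf1*, which encodes the secreted serpin PEDF, rose by 1.47 ± 0.36 (adjusted p = 0.0455). Both calls were lost without any 1 of 7 arrays. Of 9 tested partners of ADAM10 and ADAM17, 1 rose (median 0.09): *Rhbdf1*, which encodes iRhom1, a carrier of ADAM17 to the cell surface, had signals of 8.48, 8.87, 8.32 and 8.56 in βRapKO islets and 7.47, 7.84, 7.83, 7.57 and 7.91 in WT islets. The groups did not overlap, and the difference was 0.83 ± 0.14 (adjusted p = 0.0111). Of 10 tested growth factors and receptors that are shed from membranes, 2 rose (median 0.25): *Egf* by 0.51 ± 0.10 (adjusted p = 0.0181) (not called without βRapKO replicate 3 or 4) and *Notch1*, which encodes a receptor cut by ADAM10, by 0.40 ± 0.10 (adjusted p = 0.0493). The call of *Notch1* was lost without any 1 of the 9 arrays. Of 3 tested ADAMTS-like genes, whose products lack the protease part, limma called 0 (0 at an unadjusted p under 0.05, 0 by the methods' t-test), and *Adamtsl2*, with the lowest p, differed by 0.25 ± 0.19 (adjusted p = 0.509).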

How the data were processed

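RNA of 9 islet pools (4 βRapKO, 5 WT) was labelled as cRNA with a 3′ in vitro transcription kit and hybridised to Affymetrix Mouse Genome 430 2.0 arrays. The authors deposited 1 log2 signal per probe set and array. Their methods name Genespring, and how probes were summarised and scaled is not stated in the sources used here. On each array the trimmed mean of the linear signal was 497.1 to 497.7, and 43 to 107 of 45037 values lay at the floor of log2 0. No detection call or scan date was used, and the number of arrays and the brightness of a probe set limit the precision.

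Probe sets naming 1 gene in the platform annotation (34945; 932 named several and 9160 none) were kept, with the highest-mean probe set per gene. The lowest 0.25 of genes by mean over all arrays were left out (below a log2 signal of 5.51), and the 13644 others were fitted in R 4.3.3 with lmFit and eBayes of limma 3.58.1 (two-sided, Benjamini-Hochberg over all genes). The fit was tested on simulated data. Marker means were compared with exact permutation tests over all splits of the arrays.

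Members, lists and markers were chosen with earlier results of these data known, so p-values of genes were adjusted over all genes tested (over all probe sets where each was tested on its own), never over a list, and those of marker means over the 11 cell types. Named were called members, tested members without overlap, all TIMPs, and in each class the 2 with the highest mean and the 1 with the lowest p; others were named after their values were seen. From each other list, up to 4 called genes were named, or the 1 with the lowest p. Alternatives were the methods' t-test, other filters, probe set averages, median centring, quantile normalization, a floor of 6, a trended robust prior, a replicate block, and each array left out. Sequences and positions are RefSeq's (GRCm38.p6), in which all 64 members were found.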

Additional observations from a re-analysis of the deposited data

Results flagged for a closer look

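Single arrays far from the rest of their group were looked for in 28 groups of 4 or 5 arrays, and 4 were found, where chance gives about 1 in 20 groups. The 28 groups did not cover all 36 tested members. *Mmp17*, at 1.90 on βRapKO replicate 4 with the other βRapKO arrays between 5.98 and 6.73, was not among the 4. *Adam12* was at a log2 signal of 5.19 on βRapKO replicate 1, with the other βRapKO arrays between 6.11 and 6.20. *Timp4* was at 3.97 on βRapKO replicate 4, with the others between 5.99 and 6.32. *Adam9* was at 11.89 on WT replicate 2, with the other WT arrays between 11.57 and 11.63, and it was called with and without that array. *Adamts9* was at 6.44 on WT replicate 2, with the others between 7.18 and 7.41, and without that array its difference was 0.63 and still called (adjusted p = 0.0244).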

How the results depend on the processing

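*Adam9* stayed lower in every alternative run, from -0.59 to -0.50, and was not called with the replicate block (adjusted p = 0.0772) or with every probe set tested on its own (adjusted p = 0.0610). Of the alternatives with 1 value per gene, *Mmp14* was called in 5 of 17, *Adamts18* in 7 of 17 and *Adamts9* in 4 of 17, each higher in βRapKO islets in all of them. The number of members called was 1 by the methods' t-test, 1 without the filter, 1 with the lowest 0.5 of genes left out (of 8 members then tested, which left out *Mmp14*, *Adamts18* and *Adamts9*), 2 with probe sets averaged, 2 with median centring, 0 with the replicate block (15 at an unadjusted p under 0.05; limma), 1 with every probe set tested on its own (added after seeing the data), 1 to 3 with 1 array left out, 3 with quantile normalization, 5 with the trended robust prior and 6 with a floor of 6. For all genes, against 860, the count was 717 by the t-test, 748 with quantile normalization, 1067 with a floor of 6, 1080 with the lowest 0.5 of genes left out, 1273 with the trended robust prior, 452 without the filter, 317 with probe sets averaged, 474 with median centring, 61 with the replicate block, 301 with every probe set tested on its own, and 372 to 800 with 1 array left out. The replicate block drops WT replicate 5, which has no partner. Deviations of same-numbered arrays correlated at -0.04, 0.09, 0.12 and -0.03, so the numbers were not taken to pair the arrays. The *Rptor* difference was not called by the t-test (-0.72), without the filter (-0.72), with probe sets averaged (-0.16) or with the block (-0.76), and ran from -0.87 to -0.63 with 1 array left out. *Adam10* (0.13) and *Plat* (-0.27) changed sign with probe sets averaged, and *Adamts1* did without βRapKO replicate 3 (0.02) or WT replicate 2 (0.068). With 1 array left out, marker means differed by 0.20 to 0.32 for alpha cells, 0.59 to 0.94 for Schwann cells, -0.21 to 0.36 for lymphocytes and -1.09 to 0.59 for acinar cells. The causes were not tested. Dim signals limit most members, since the median pooled SD was 0.609 for the 18 with a mean under 7.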
